A study of Mus musculus with 4 samples.

Results

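The ATRA section of mouse brain organoids was compared with the VitaminA section, as 2 of the 4 sections of spatial transcriptomics in the series. Both sets of organoids were grown for 3 months from embryonic stem cells that carry CARLIN, a barcode for tracing lineages, and Cas9, and both started from 5000 cells per well. The first medium held an inhibitor of TGF-beta receptors, and the cell bodies were later embedded in Matrigel and then fed medium with B27 supplement lacking vitamin A. From day 9, the ATRA organoids received all-trans retinoic acid at 1 µM, an agonist of all retinoic acid receptors, and the VitaminA organoids received 2% B27 with vitamin A. The other sections, used here as context, came from organoids given BMS753 (1 µM, a receptor alpha agonist) or BMS961+BMS641 (0.1 µM, receptor gamma and beta agonists). Organoids were frozen several to a mold, and the labels do not say how many a section holds. The cells come from a stem cell line and not from animals, and each treatment has 1 section.

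The ATRA section had 593 spots and the VitaminA section 552, together 1145 of the 1979 spots of the series. A gene's level is its deposited signal averaged over every spot, given as ppm of the section's summed signal. The files shared 20604 genes, and the 14794 with at least 5 ppm in either section were compared. With 1 section a side there is no replicate check, nothing was tested, and the values describe these 2 sections. A spot can hold several cells, so fewer cells of a type and less RNA per cell cannot be told apart.

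Retinoic acid is made from vitamin A in steps: retinol is oxidised to retinaldehyde, and retinaldehyde dehydrogenases such as Aldh1a2 oxidise that to the acid. It binds the receptors Rara, Rarb and Rarg, which sit on DNA as dimers with the Rxr proteins, on direct repeats of a short motif. In the embryonic nervous system it is known for giving the hindbrain and spinal cord their position along the body axis through Hox genes, and for driving neuronal differentiation. Cells given excess retinoic acid are known to raise enzymes that degrade it, such as Cyp26a1, and those that store its precursor.

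The promoters of Rarb and Cyp26a1, textbook targets of the receptors, are shown because they hold such repeats with a spacing of 5 bases. Slc45a3 and Ak4 are shown as genes that stood higher and lower with ATRA and hold repeats with spacings of 2 and 1. Each sequence has 150 bases in the direction of the gene, from RefSeq on GRCm38.p6, with the repeat in capitals. They come from chr14:16575477-16575626 (minus strand), chr19:37697658-37697807 (plus), chr1:131970459-131970608 (plus) and chr4:101419553-101419702 (plus), in the order of the lines.
Rarb: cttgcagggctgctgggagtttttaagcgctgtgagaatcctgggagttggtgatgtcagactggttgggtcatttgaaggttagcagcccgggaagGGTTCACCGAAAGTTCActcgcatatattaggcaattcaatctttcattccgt
Cyp26a1: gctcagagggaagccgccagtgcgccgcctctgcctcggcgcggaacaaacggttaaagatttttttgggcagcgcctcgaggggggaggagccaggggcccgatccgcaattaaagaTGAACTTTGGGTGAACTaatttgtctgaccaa
Slc45a3: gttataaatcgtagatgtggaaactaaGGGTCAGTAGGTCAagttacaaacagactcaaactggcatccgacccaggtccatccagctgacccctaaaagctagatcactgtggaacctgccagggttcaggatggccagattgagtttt
Ak4: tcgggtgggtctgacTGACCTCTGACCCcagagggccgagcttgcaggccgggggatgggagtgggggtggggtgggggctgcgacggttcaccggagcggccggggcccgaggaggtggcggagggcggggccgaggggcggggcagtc
In Rarb and Slc45a3 the repeat reads along the gene, and in Cyp26a1 and Ak4 along the opposite strand. The search used the motif AGGTCA, the form AGTTCA found in the Rarb promoter, another form written GGGTCA, and as a last form GGTTCA. A pair in the same direction with 1, 2 or 5 bases between them was sought on both strands, from 250 bases before to 50 after each start. Such repeats were found for 186 of 27025 genes with a promoter sequence (0.688%), and with a spacing of 5 for 31 (0.115%). Among genes compared here they were found for 48 of 11676 (0.411%), with 3 of 1018 of those at least 2-fold higher with ATRA (0.295%) and 13 of 2662 of those at least 2-fold lower (0.488%). A match is a description of letters and not of binding.

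Rarb, which encodes retinoic acid receptor beta, stood at 152 ppm with ATRA, against 178 ppm with vitamin A, and at 187 ppm in BMS753 and 153 ppm in BMS961+BMS641. All 4 sections had much the same level, and the log2 ratio of ATRA over VitaminA was -0.23. Cyp26a1 was near the floor, at 1.74 ppm with ATRA and 2.98 ppm with vitamin A, seen in 2.87% of ATRA spots and 4.89% of VitaminA spots. Slc45a3, a transporter gene known from prostate, had 159 ppm with ATRA and 38.4 ppm with vitamin A, and Ak4, a mitochondrial adenylate kinase gene, 20.1 ppm with ATRA and 131 ppm with vitamin A, so these went opposite ways.

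The files hold a signal and no counts, and depth per spot is unknown. Within each section the spots had been quantile normalised by the authors, and every spot had the same number of positive genes, 12291 with ATRA and 8604 with vitamin A. In 592 of 593 ATRA spots and 551 of 552 VitaminA spots, all genes at 0 came before all genes of the lowest class of values in the order of the file. The lowest class is a run of values rising with file order. Together with 0 it looks like a tie split by that order, which was not tested, since the sources used here do not describe the normalisation. The class held 70.3% of positive values and 7.58% of the signal with ATRA, and 45.7% and 5.64% with vitamin A. A gene is called seen in a spot here when it stood above that class. The median number of genes seen per spot was 3388 (690 to 11209) with ATRA and 4659 (1155 to 8507) with vitamin A. In the ATRA section array column 50, with 20 spots, had a median of 7684 genes seen, against 3310 in the other columns, and columns held 68.3% of the variance of genes seen per spot, against 47.0% in the VitaminA section.

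Levels of the same gene in the ATRA and VitaminA sections had a Spearman correlation of 0.752 across the 14794 genes, which share library and array and are not replicates. The median log2 ratio, taken with a pseudocount of 1 ppm, was -0.33, and the middle 50% of genes lay between -0.94 and 0.21. With ATRA 1272 genes (8.6%) were at least 2-fold higher, and 3392 (22.9%) at least 2-fold lower. These shares are the background for each gene group. The tails were more even: 292 genes had a log2 ratio of at least 3 and 311 of at most -3, and 56 were at 5 or above and 43 at -5 or below. Centred on the median of all genes, the split became 1797 higher and 2161 lower. "Higher" and "lower" below mean a log2 ratio of at least 1 or at most -1, with no test.

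**Figure D1:**
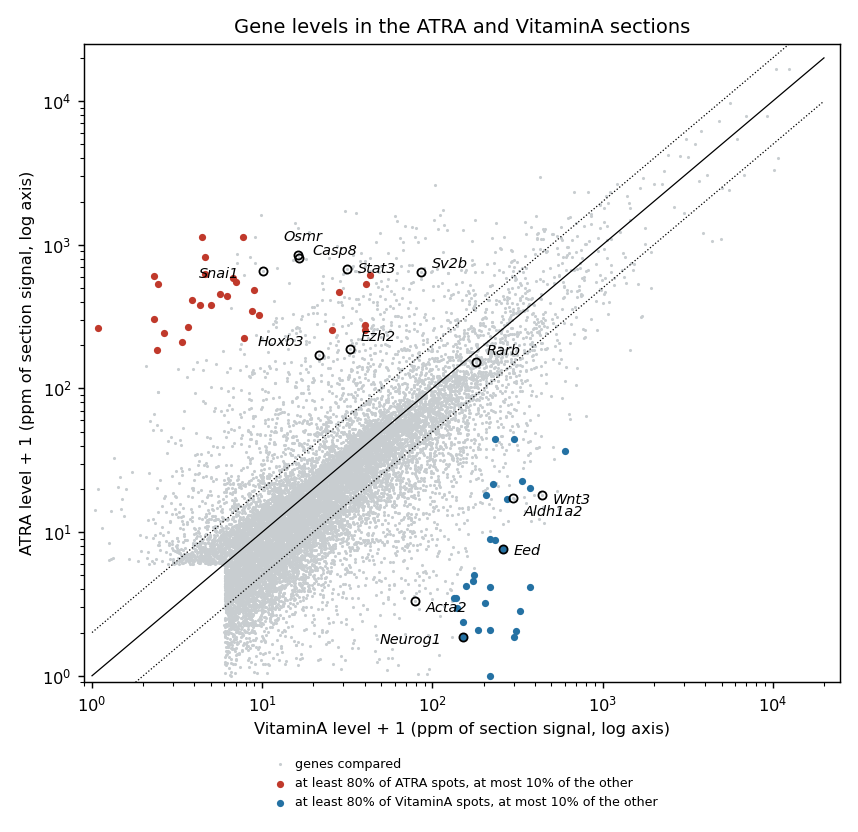
Level of each compared gene in the ATRA section (y) against the VitaminA section (x), in ppm of section signal plus 1 on log axes. The solid line marks equal levels and the dotted lines 2-fold differences. Red points are the 29 genes seen in at least 80% of ATRA spots and at most 10% of VitaminA spots, blue points the 28 genes with the opposite pattern, and open circles are genes named in the text.

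The ratio of a gene varied with its place in the file. With the VitaminA file cut into 10 equal stretches, the median log2 ratio lay between -0.64 and -0.54 in stretches 1 to 7, at -0.30 in stretch 8, and at 0.07 and 0.09 in stretches 9 and 10. With the lowest class set to 0, all 10 lay between -0.64 and -0.52. The median over all genes was then -0.58, with 1352 genes higher (9.14%) and 4621 lower (31.2%). Group medians below are therefore given relative to all genes in both settings, first as deposited and then with the lowest class at 0.

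**Figure D2:**
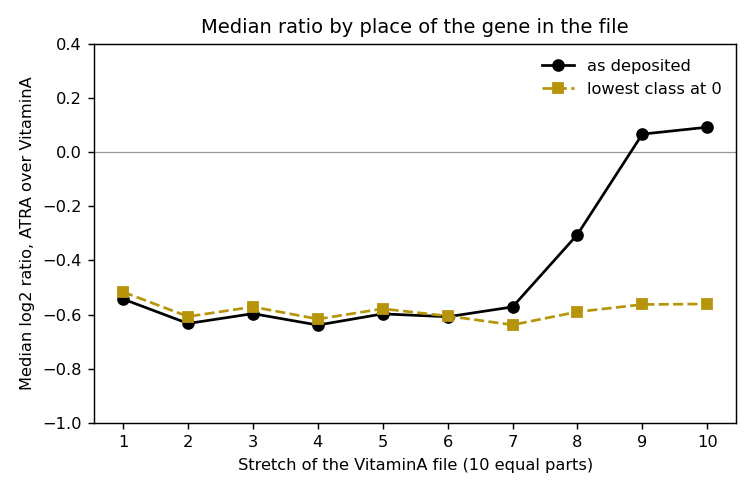
Median log2 ratio of ATRA over VitaminA for genes in each of 10 equal stretches of the VitaminA file, as deposited (circles) and with the lowest class of values set to 0 (squares). As deposited the last stretches lie up to 0.09, while with the lowest class at 0 every stretch lies at or below -0.52.

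Among genes that make and carry retinoids, Aldh1a2 and Scarb1 stood high in the VitaminA section alone. Aldh1a2 stood at 16.2 ppm with ATRA, against 296 ppm with vitamin A, and at 41.1 ppm in BMS753 and 28.5 ppm in BMS961+BMS641. The VitaminA section thus stood apart from the rest, with Aldh1a2 seen in 25.6% of ATRA spots and 94% of VitaminA spots (log2 ratio -4.10). Scarb1, a receptor that takes up lipoproteins and carotenoids, had 16.6 ppm with ATRA and 346 ppm with vitamin A (-4.30), with 69.2 ppm in BMS753 and 23.5 ppm in BMS961+BMS641. Bco2, which cleaves carotenoids in mitochondria, went the opposite way, at 80.3 ppm with ATRA, against 3.5 ppm with vitamin A and 6.1 ppm in BMS753 and 2.7 ppm in BMS961+BMS641. Here the ATRA section was the one apart, by a log2 ratio of 4.17. Aldh1a3, another retinaldehyde dehydrogenase gene, had 14.3 ppm with ATRA and 33.4 ppm with vitamin A (-1.17), but the BMS961+BMS641 section was lower still at 9.68 ppm.

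Of the 12 compared synthesis enzymes 1 was higher and 3 lower, of the 7 carriers and uptake genes 0 and 2, and of the 5 genes of reduction and storage 0 and 2. The shares lower were 25%, 28.6% and 40% in that order, against 22.9% of all genes. Relative to all genes the medians were 0.02, -0.20 and -0.45, or -0.24, 0.07 and -0.24 with the lowest class at 0. The synthesis enzymes were thus near the background, and the direction of the first 2 lists turned with the setting. The binding protein gene Crabp1, at 11 ppm with ATRA and 8.76 ppm with vitamin A, differed less than those above. It was at 171 ppm in the BMS961+BMS641 section, the only one of the 4 above 20 ppm. Of the 3 compared degradation genes, Cyp26b1 had 16.1 ppm with ATRA and 35.1 ppm with vitamin A (-1.07). Neither Cyp26a1 nor Cyp26b1, nor the retinaldehyde reductase gene Dhrs3 (2.86 ppm with ATRA, 28.8 ppm with vitamin A), stood higher in the ATRA section.

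Of the 6 retinoid receptor genes 0 were higher and 3 lower (50%, against 22.9% of all genes). Their median was -0.83 relative to all genes, or -0.56 with the lowest class at 0. Rarg had 15.3 ppm with ATRA and 53.6 ppm with vitamin A (-1.74), with 34.2 ppm in BMS753 and 27.2 ppm in BMS961+BMS641. Rxra, a dimer partner of the receptors, had 23.2 ppm, against 63.9 ppm with vitamin A and 55.1 ppm in BMS753 and 56.2 ppm in BMS961+BMS641. ATRA was the lowest of the 4 sections in both. Rara had 38.2 ppm with ATRA and 72.2 ppm with vitamin A (-0.90), which misses 2-fold.

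Coregulators, the proteins through which the receptors turn genes on or off, split. Of 16 genes 3 were higher and 2 lower. Kmt2c, a histone methyltransferase of enhancer complexes, had 1052 ppm with ATRA and 81.3 ppm with vitamin A, with 163 ppm in BMS753 and 243 ppm in BMS961+BMS641 (3.68). The coactivator gene Ncoa3 was lower, at 51.9 ppm with ATRA and 139 ppm with vitamin A (-1.41), and BMS753 shared the ATRA level at 51.9 ppm. Of 22 genes listed as retinoic acid targets 2 were higher and 7 lower. Among these, Cdx1, a homeobox gene of the posterior embryo, had 5.17 ppm with ATRA and 55.5 ppm with vitamin A (-3.19), and Stra8, a meiosis gene, 47.3 ppm with ATRA and 19.1 ppm with vitamin A (1.26).

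Patterning genes of the body axis were seen in few spots, with a median over Hox groups 1 to 4 of 4.89% of ATRA spots and 4.71% of VitaminA spots. Hoxb3, of the hindbrain, was an exception, seen in 71.7% of ATRA spots and 30.8% of VitaminA spots. It stood at 169.8 ppm with ATRA, against 20.5 ppm with vitamin A and 11.9 ppm in BMS753 and 12.1 ppm in BMS961+BMS641, which put ATRA alone at the top. Of the 5 compared genes of Hox groups 1 to 4, 2 were higher and 0 lower, and of the 12 of groups 5 to 13, 1 and 2. Hoxa10 had 27.8 ppm with ATRA and 11.5 ppm with vitamin A (1.21), and Hoxb8 6.64 ppm with ATRA and 22.4 ppm with vitamin A (-1.61). Hoxb1, an early Hox responder to retinoic acid, was below the level filter in both sections.

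Of 19 forebrain patterning factors 1 was higher and 10 lower (52.6%, against 22.9% of all genes). Their median was -0.70 relative to all genes, or -0.47 with the lowest class at 0. Only 3 reached the level and detection needed to be named by rule. Pax6, of forebrain and eye, had 8.85 ppm with ATRA and 19.6 ppm with vitamin A (-1.07). Lhx5 had 10.7 ppm with ATRA and 23 ppm with vitamin A (-1.03), and stood at 90.7 ppm in BMS753, so neither section of the pair was the high one. Of 21 midbrain and hindbrain factors 1 was higher and 5 lower. En1, which marks the border of midbrain and hindbrain, had 3.6 ppm with ATRA and 86.8 ppm with vitamin A, with 18.4 ppm in BMS753 and 4.59 ppm in BMS961+BMS641 (-4.25). Pax8 was higher, at 58.6 ppm with ATRA and 16.4 ppm with vitamin A (1.77), and BMS961+BMS641 was close to ATRA at 53.4 ppm.

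Neuronal genes, listed to check the label of brain tissue, were seen in both sections. Detection rose with genomic span, however. In the shortest of 5 bins of genes the median was 3.71% of ATRA spots and 7.07% of VitaminA spots, and in the longest 49.7% and 64.5%. Abundant housekeeping transcripts had medians of 2.02% and 4.98%, so the percent of spots does not settle the label on its own. Rbfox1, a neuronal splicing factor gene, was seen in 99% of ATRA spots and 99.8% of VitaminA spots, Rbfox3 in 87.5% of ATRA spots and 96.6% of VitaminA spots, and Tubb3, neuronal tubulin, in 15.7% of ATRA spots and 27.7% of VitaminA spots. Of 21 pan-neuronal genes 0 were higher and 9 lower (42.9%, against 22.9% of all genes). The list median was -0.10 relative to all genes as deposited, or 0.12 with the lowest class at 0, so its direction turned with the setting. Syp, a synaptic vesicle protein gene, had 4.32 ppm with ATRA and 99.7 ppm with vitamin A, with 10.1 ppm in BMS753 and 4.28 ppm in BMS961+BMS641, and stood apart in the VitaminA section (-4.24). Elavl4 had 17.7 ppm with ATRA and 108 ppm with vitamin A, and Snap25, a gene of vesicle fusion, 11.9 ppm with ATRA and 34.1 ppm with vitamin A (-1.45).

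Genes of vesicle release held members that were higher. Sv2b, a vesicle glycoprotein gene, had 651 ppm with ATRA, against 84.5 ppm with vitamin A and 65.4 ppm in BMS753 and 102 ppm in BMS961+BMS641. Unc13a, which primes vesicles, had 251 ppm with ATRA and 44.1 ppm with vitamin A, with 47.6 ppm in BMS753 and 28.8 ppm in BMS961+BMS641, and Rims1, an active zone scaffold, 301 ppm with ATRA and 134 ppm with vitamin A. ATRA was at least 2-fold above each of the other 3 sections in these genes. Over the list, 3 of 24 genes were higher (12.5%, against 8.6% of all genes) and 2 lower (8.33%, against 22.9%). Of the 24, 20 reached the level and detection needed to be named by rule. Among all genes that reached them, 13.7% were higher, so the share higher in this list was near the background. By sign alone 6 of the list had a ratio above 0 and 18 below. On the postsynaptic side 1 of 25 was higher and 6 lower, with Dlgap1, a scaffold, at 2344 ppm with ATRA and 675 ppm with vitamin A, and Cntnap4, an adhesion gene of interneurons, at 86.1 ppm with ATRA and 283 ppm with vitamin A.

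Each of the 5 lists of transmitter systems held at most 1 higher gene. Of 20 GABAergic genes 0 were higher and 8 lower (40%, against 22.9% of all genes). The median was -0.52 relative to all genes, or -0.64 with the lowest class at 0. Lhx6, a transcription factor of interneurons, had 11.1 ppm with ATRA and 73.5 ppm with vitamin A, with 15.4 ppm in BMS753 and 5.24 ppm in BMS961+BMS641. The VitaminA section was the high one. Of 23 glutamatergic genes 0 were higher and 8 lower (34.8%, against 22.9% of all genes). Among the lower ones Grik2, a kainate receptor gene, had 150.0 ppm with ATRA and 550.1 ppm with vitamin A (-1.87). That list's median was -0.10 relative to all genes, or 0.15 with the lowest class at 0.

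Of 15 dopaminergic and noradrenergic genes 0 were higher and 4 lower. Drd2, a dopamine receptor gene, had 22.1 ppm with ATRA and 194 ppm with vitamin A, with 48 ppm in BMS753 and 27 ppm in BMS961+BMS641, and Nr4a2, a transcription factor of dopamine neurons, 16.6 ppm with ATRA and 113 ppm with vitamin A. Of 13 serotonergic genes 1 was higher and 2 lower. The receptor gene Htr2c had 493 ppm with ATRA and 49.6 ppm with vitamin A (3.29), while Tph1, which makes serotonin mainly outside the brain, had 5.76 ppm with ATRA and 105 ppm with vitamin A (-3.97). Among cholinergic genes the receptor subunits Chrna7 (205 ppm with ATRA, 34.6 ppm with vitamin A) and Chrna3 (5.34 ppm with ATRA and 43.6 ppm with vitamin A) stood on opposite sides.

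Axon guidance genes, which steer growing axons, stood on both sides. Of 37 genes 8 were higher (21.6%, against 8.6% of all genes) and 9 lower (24.3%, against 22.9%). Of the 37, 34 reached the level and detection needed to be named by rule. Among all 7461 genes that reached them, 13.7% were higher and 24.2% lower, so 8.6% is a low background for this list. The secreted cue Sema3e had 311 ppm with ATRA and 64.3 ppm with vitamin A, with 99.6 ppm in BMS753 and 47.7 ppm in BMS961+BMS641. Efna5, a ligand of Eph receptors, had 723 ppm with ATRA, against 171 ppm with vitamin A and 190.1 ppm in BMS753 and 169.7 ppm in BMS961+BMS641. Ntn1, the netrin that attracts commissural axons, had 470.3 ppm with ATRA and 139.9 ppm with vitamin A, and its receptor gene Unc5d 944 ppm with ATRA and 249.8 ppm with vitamin A. In these genes ATRA was the highest of the 4 sections. Epha5, an Eph receptor gene, was lower, at 50.5 ppm with ATRA and 286 ppm with vitamin A (-2.48), with 94 ppm in BMS753 and 44.7 ppm in BMS961+BMS641. Slit2, a repellent, had 27.4 ppm with ATRA and 81.8 ppm with vitamin A (-1.54), but the other sections were near the VitaminA level, at 72.7 ppm in BMS753 and 67.1 ppm in BMS961+BMS641.

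Neuronal ion channel genes gave 2 higher and 3 lower of 24. Cacna1e, of R-type calcium channels, had 644 ppm with ATRA and 97.2 ppm with vitamin A, and Kcnc2, a fast potassium channel gene, 635 ppm with ATRA and 123 ppm with vitamin A.

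Among glia, astroglial genes gave 3 higher and 6 lower of 17. Their median was -0.42 relative to all genes, or -0.16 with the lowest class at 0. Of the higher ones, Gpc5 had 1241 ppm with ATRA and 450 ppm with vitamin A, and Gjb6 25.2 ppm with ATRA and 10.6 ppm with vitamin A. Mlc1, a membrane protein gene of astrocyte endfeet, had 78.3 ppm with ATRA and 3.62 ppm with vitamin A, with 8.01 ppm in BMS753 and 2.26 ppm in BMS961+BMS641, and was seen in 64.4% of ATRA spots and 10.1% of VitaminA spots. The defining filament gene Gfap was under 5 ppm in both sections, at 3.16 ppm with ATRA and 3.84 ppm with vitamin A. Nfib, a gliogenic transcription factor, had 30.8 ppm with ATRA and 109 ppm with vitamin A (-1.79), and Slc1a2, a glutamate transporter, 37.4 ppm with ATRA and 97.9 ppm with vitamin A (-1.36). Of 19 oligodendrocyte lineage genes 2 were higher and 4 lower: Sox10 had 24.1 ppm with ATRA and 10.2 ppm with vitamin A, and Cspg4, a progenitor proteoglycan gene, 7.57 ppm with ATRA and 53.3 ppm with vitamin A.

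Genes of reactive astroglia and of gp130 cytokine signalling, listed together, gave 4 higher and 5 lower of 20. The median of this mixed list was -0.09 relative to all genes, or 0.10 with the lowest class at 0. By sign alone 7 had a ratio above 0 and 13 below. With the lowest class at 0, the level summed over the 24 list members in both files was 2142 ppm with ATRA and 561 ppm with vitamin A. Osmr and Stat3 made up most of that difference. Osmr, the oncostatin M receptor gene, had 846 ppm with ATRA, against 15.1 ppm with vitamin A and 33 ppm in BMS753 and 20.1 ppm in BMS961+BMS641. Its lowest and highest quadrants were 820.3 and 878 ppm in the ATRA section, and 8.32 and 19.8 ppm in the VitaminA section. Stat3, which carries the signal to the nucleus, had 676 ppm with ATRA and 30.5 ppm with vitamin A, with 24.1 ppm in BMS753 and 173 ppm in BMS961+BMS641, so BMS961+BMS641 lay between. Lifr, a receptor partner in the same family, was lower (28.7 ppm with ATRA and 118 ppm with vitamin A).

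**Figure D3:**
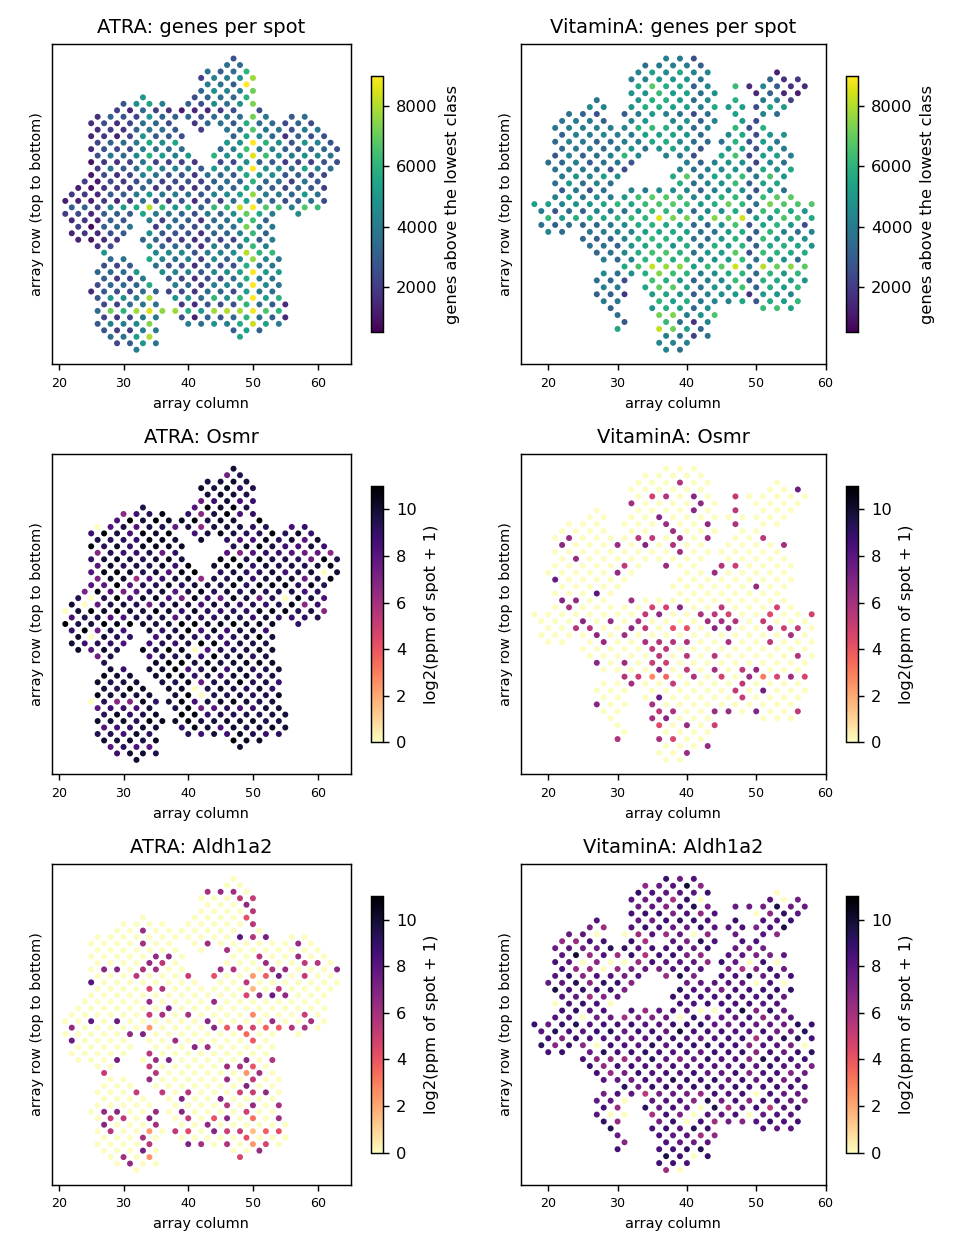
Spots of the ATRA section (left) and the VitaminA section (right) at their place on the array. The top row shows genes seen per spot, the middle row Osmr and the bottom row Aldh1a2, as log2 of ppm of the spot plus 1, with the lowest class at 0. Osmr fills the ATRA section (98.1% of ATRA spots, 23.9% of VitaminA spots) and Aldh1a2 the VitaminA section (25.6% of ATRA spots, 94.0% of VitaminA spots).

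Cells of other kinds left mixed marks. Of 13 endothelial genes 4 were higher (30.8%, against 8.6% of all genes) and 1 lower (7.69%, against 22.9%). By sign alone 8 had a ratio above 0 and 5 below. Vwf, the clotting factor of endothelium, had 542 ppm with ATRA, against 73.7 ppm with vitamin A and 73 ppm in BMS753 and 70.8 ppm in BMS961+BMS641, and Eng, a TGF-beta coreceptor gene, had 114 ppm with ATRA and 19 ppm with vitamin A. Emcn, another gene of the list, had 131 ppm with ATRA and 40.2 ppm with vitamin A (1.68). Yet Pecam1 had 20.3 ppm with ATRA and 40.2 ppm with vitamin A, which misses 2-fold. Kdr, the receptor of VEGF, was lower, at 7.07 ppm with ATRA and 21.1 ppm with vitamin A, so these defining markers did not go with Vwf. The list median was 0.60 relative to all genes, or 0.81 with the lowest class at 0. With the lowest class at 0, the level summed over the 18 list members in both files was 1951 ppm with ATRA and 1399.6 ppm with vitamin A. Vwf alone made up most of that difference. Microglial genes gave 2 higher and 2 lower of 12, with Cx3cr1 at 25.2 ppm with ATRA and 22.7 ppm with vitamin A.

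Of 21 mural and mesenchymal genes 2 were higher and 12 lower (57.1%, against 22.9% of all genes), with a median of -0.81 relative to all genes, or -0.90 with the lowest class at 0. The smooth muscle actin gene Acta2 had 2.3 ppm with ATRA and 78.4 ppm with vitamin A, with 6.76 ppm in BMS753 and 7.91 ppm in BMS961+BMS641. Col5a1, a fibrillar collagen gene, had 85.2 ppm with ATRA and 573 ppm with vitamin A, but BMS961+BMS641 was at 671 ppm, so ATRA and BMS753 were the low sections. Pdgfrb, the pericyte receptor gene, stood higher, at 91.6 ppm with ATRA and 18 ppm with vitamin A. Lists of ciliated ependyma (4 higher, 4 lower of 17) and neural crest (4 and 3 of 14) held members on both sides. Among the higher ones, Dnah5, a motor of cilia, had 1262 ppm with ATRA and 150.0 ppm with vitamin A. Snai1, which drives epithelial cells to migrate, had 661 ppm with ATRA and 9.18 ppm with vitamin A, and Pax3, a crest and dorsal cord factor, 727 ppm with ATRA and 74.8 ppm with vitamin A. ATRA stood at least 4-fold above each other section in these genes, while the crest regulator Tfap2b (5.87 ppm with ATRA and 31.7 ppm with vitamin A) went the opposite way. So did Dnah9, another motor gene of cilia, at 77.2 ppm with ATRA and 287 ppm with vitamin A (-1.88), and Ccno, which multiciliated cells need, at 2.08 ppm with ATRA and 26.2 ppm with vitamin A (-3.14).

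**Figure D4:**
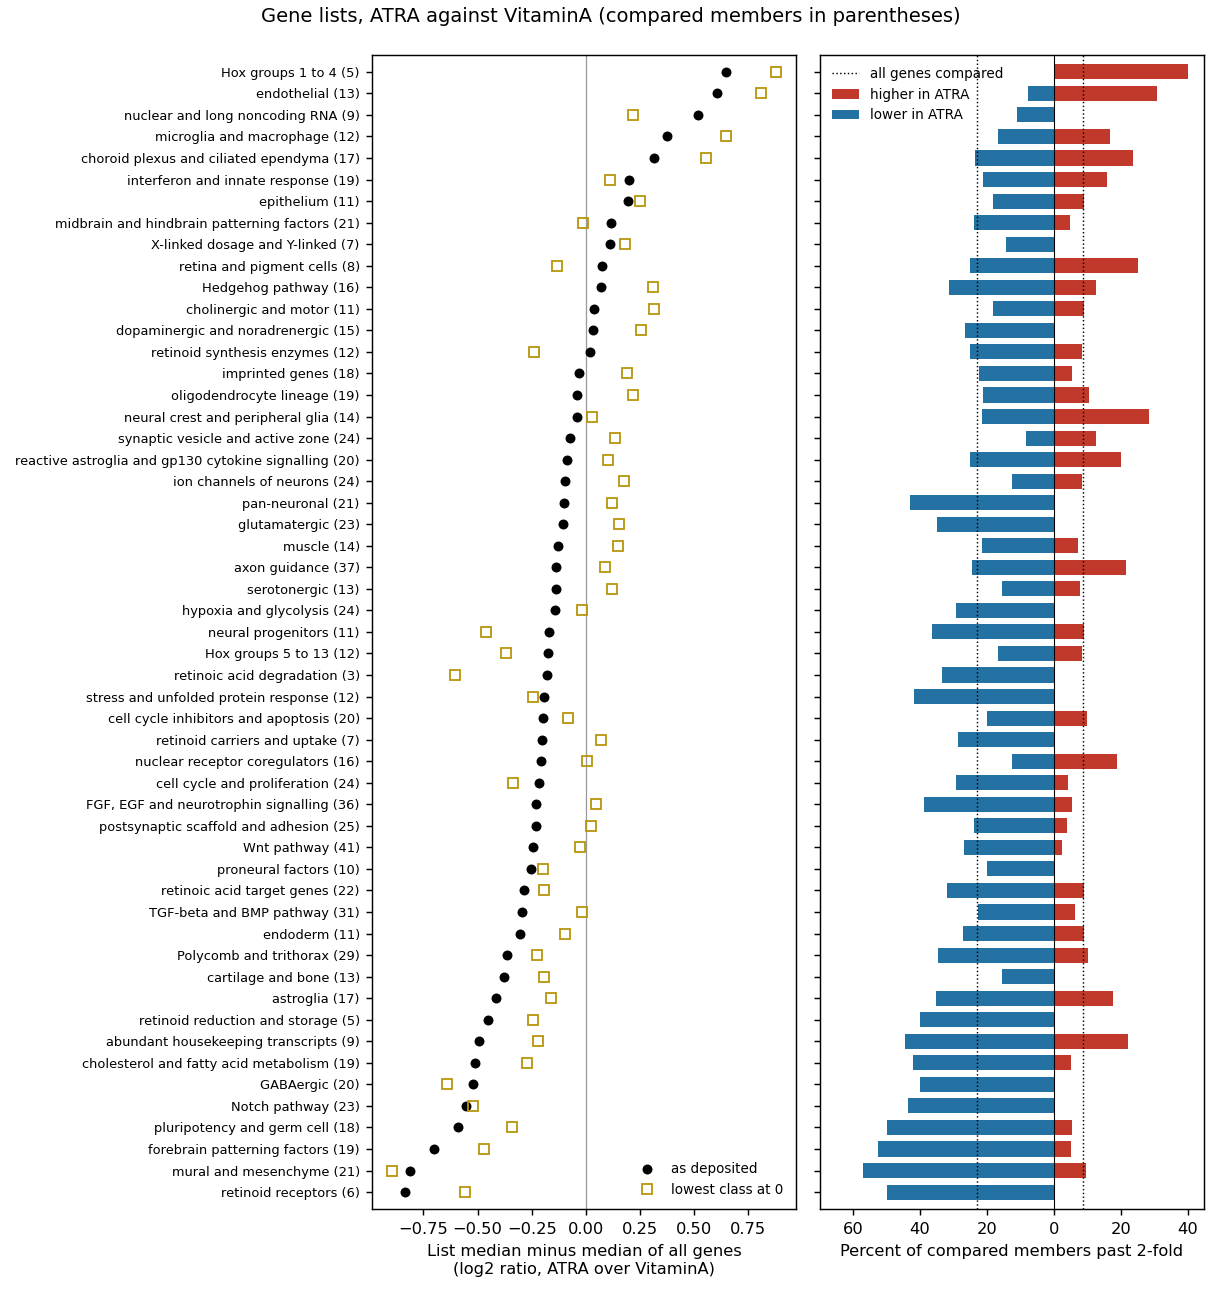
For each of the 53 gene lists, the median log2 ratio of ATRA over VitaminA minus the median of all genes (left, as deposited and with the lowest class at 0) and the percent of compared members at least 2-fold higher (red, right of 0) or lower (blue, left of 0) with ATRA. Dotted lines mark the 8.6% and 22.9% of all genes.

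Notch signalling, which keeps progenitors from differentiating, had 0 of 23 genes higher and 10 lower (43.5%, against 22.9%), with a median of -0.55 relative to all genes, or -0.52 with the lowest class at 0. Rbpj, the DNA-binding partner of Notch, had 23.6 ppm with ATRA and 54.4 ppm with vitamin A, and Mib1, which activates the ligands, 7.92 ppm with ATRA and 26.8 ppm with vitamin A. The target Hey2 had 43.4 ppm with ATRA and 232 ppm with vitamin A (-2.39, or -5.19 with the lowest class at 0), and was seen in 5.9% of ATRA spots and 85.7% of VitaminA spots. Dlk1, an imprinted ligand, was lower at 9.09 ppm with ATRA and 29.9 ppm with vitamin A, but stood at 1091 ppm in BMS961+BMS641.

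Wnt genes gave 1 higher and 11 lower of 41. With the lowest class at 0, the level summed over the 45 list members in both files was 2995 ppm with ATRA and 7642 ppm with vitamin A. Wnt3 had 17 ppm with ATRA, against 438 ppm with vitamin A and 28.4 ppm in BMS753 and 12.5 ppm in BMS961+BMS641, so that the VitaminA section stood alone. Tcf7, a transcription factor of the pathway, had 1059.6 ppm with ATRA and 4423 ppm with vitamin A, and made up most of the difference in summed level. Lgr5, a receptor that boosts the signal, was the higher gene, at 197 ppm with ATRA and 73.2 ppm with vitamin A.

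Hedgehog signalling, which patterns the ventral neural tube, gave 2 higher and 5 lower of 16, with 9 within 2-fold and a median of 0.07 relative to all genes, or 0.31 with the lowest class at 0. The ligand gene Shh had 66.3 ppm with ATRA and 11.7 ppm with vitamin A, and Hhat, which attaches its lipid, 780.1 ppm with ATRA and 171 ppm with vitamin A, and these were the higher genes. The target and effector Gli1 had 17.8 ppm with ATRA and 168 ppm with vitamin A, with 16.7 ppm in BMS753 and 10.4 ppm in BMS961+BMS641. The other lower genes, Dhh, Smo, Cdon and Gpr161, were under 20 ppm in both sections, outside the rule for named genes, and were named after their values were seen, to complete the count. For FGF, EGF and neurotrophin genes 2 of 36 were higher and 14 lower (38.9%, against 22.9%): Fgf18 had 496 ppm with ATRA and 29 ppm with vitamin A, while Fgf2 had 21.3 ppm with ATRA and 137 ppm with vitamin A and Bdnf 7.18 ppm with ATRA and 21.3 ppm with vitamin A. TGF-beta and BMP genes gave 2 higher and 7 lower of 31, close to the background.

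Polycomb and trithorax genes, which hold chromatin silent or active, gave 3 higher and 10 lower of 29 (34.5%, against 22.9% of all genes). The core of Polycomb complex PRC2 split: Eed had 6.57 ppm with ATRA, against 259 ppm with vitamin A and 3.65 ppm in BMS753 and 5.41 ppm in BMS961+BMS641, and Suz12 had 21.6 ppm with ATRA and 65.4 ppm with vitamin A, while the methyltransferase Ezh2 had 189 ppm with ATRA and 31.7 ppm with vitamin A, with 37.2 ppm in BMS753 and 32.1 ppm in BMS961+BMS641. Eed was seen in 7.42% of ATRA spots and 92.2% of VitaminA spots. The histone demethylase Kdm5a was lower too (29.5 ppm with ATRA and 265 ppm with vitamin A).

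For the cell cycle 1 of 24 genes was higher and 7 lower. Mcm7, of the replication helicase, had 0.777 ppm with ATRA and 33.8 ppm with vitamin A, with 2.66 ppm in BMS753 and 1.23 ppm in BMS961+BMS641, while Mcm4 of the same helicase had 21.2 ppm with ATRA and 8.7 ppm with vitamin A, in the other direction. Casp8, a starter of cell death, had 803 ppm with ATRA, against 15.6 ppm with vitamin A and 7.1 ppm in BMS753 and 5.27 ppm in BMS961+BMS641. It was seen in 96.5% of ATRA spots and 28.1% of VitaminA spots. The death-promoting Bcl2l11 was also higher (46.5 ppm with ATRA and 10.2 ppm with vitamin A), and the list of cell cycle inhibitors and death genes as a whole gave 2 higher and 4 lower of 20.

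Neural progenitor genes gave 1 higher and 4 lower of 11, with Zic1, a dorsal neural tube factor, at 22.7 ppm with ATRA and 7.86 ppm with vitamin A, and Msi1, an RNA-binding protein of neural stem cells, at 12.1 ppm with ATRA and 30.0 ppm with vitamin A. Of 18 pluripotency and germ cell genes 1 was higher and 9 lower (50%, against 22.9% of all genes). Sall4 had 4.58 ppm with ATRA and 144 ppm with vitamin A, with 24.1 ppm in BMS753 and 7.72 ppm in BMS961+BMS641, and Klf5 had 2.52 ppm with ATRA and 28.5 ppm with vitamin A. The defining factor Pou5f1 had 7.06 ppm with ATRA and 8.42 ppm with vitamin A, within 2-fold, so these genes did not move as 1 block. Among 10 proneural factors 0 were higher and 2 lower, and Neurog1, which commits progenitors to neurons, had 0.859 ppm with ATRA, against 150.4 ppm with vitamin A and 3.3 ppm in BMS753 and 1.95 ppm in BMS961+BMS641.

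Genes of further tissues were at the background or split. Muscle genes gave 1 higher and 3 lower of 14, cartilage and bone genes 0 and 2 of 13, epithelial genes 1 and 2 of 11, and endodermal genes 1 and 3 of 11. Alpl, an alkaline phosphatase gene of bone and stem cells, had 25.8 ppm with ATRA and 170.3 ppm with vitamin A, with 28.7 ppm in BMS753 and 29.5 ppm in BMS961+BMS641. The epithelial keratin Krt8 had 19 ppm with ATRA and 52.5 ppm with vitamin A, and its log2 ratio of -1.42 became -3.26 with the lowest class at 0. Pax7, a muscle and dorsal cord factor related to Pax3, had 93.5 ppm with ATRA and 294 ppm with vitamin A, opposite to Pax3. Interferon and innate genes gave 3 higher and 4 lower of 19, with Ifit2, an antiviral gene, at 148 ppm with ATRA and 21.5 ppm with vitamin A. Imprinted genes gave 1 and 4 of 18, with Zim1 at 50.6 ppm with ATRA and 7.28 ppm with vitamin A and Gnas, a G protein gene, at 41.1 ppm with ATRA and 152 ppm with vitamin A.

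Cholesterol and fatty acid genes gave 1 higher and 8 lower of 19 (42.1%, against 22.9% of all genes). Cyp51, a step of sterol synthesis, was higher at 329 ppm with ATRA and 22.5 ppm with vitamin A, while Dhcr7, the last step of cholesterol synthesis, had 9.04 ppm with ATRA and 67.5 ppm with vitamin A and Scd2, a fatty acid desaturase gene, 4.32 ppm with ATRA and 57.3 ppm with vitamin A. Dhcr7 stood at 114 ppm in BMS753. In hypoxia and glycolysis genes 0 of 24 were higher and 7 lower, with Hif1a at 8.76 ppm with ATRA and 66.1 ppm with vitamin A.

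Many of the largest ratios belonged to genes seen nearly everywhere in 1 section of the pair. With ATRA 29 genes were seen in at least 80% of spots and in at most 10% of VitaminA spots, and they took 1.33% of the ATRA signal, against 0.0305% of the VitaminA signal. With vitamin A 28 genes were seen in at least 80% of spots and at most 10% of ATRA spots, and took 0.0274% of the ATRA signal, against 0.682% of the VitaminA signal. Of the first set 25 of the 28 genes listed in all 4 files were seen in at most 20% of spots in both other sections, and of the second set 24 of 28. These counts carry little weight, since the genes were chosen for low detection in 1 section. The same share over all genes with such low detection is not given here. Pars2, a mitochondrial tRNA synthetase gene, had 603 ppm with ATRA and 1.3 ppm with vitamin A, and U2af1, a splicing factor gene, 1139 ppm with ATRA and 3.43 ppm with vitamin A. The first set lay on 16 chromosomes with at most 4 genes on any 1, and 27 of its genes had a genomic span below the median of genes. The second set was alike in this, on 15 chromosomes with at most 3 genes on any 1, and 22 of its genes below the median span. These span counts carry little weight. Detection rose with span, and each set was limited to genes seen in at most 10% of spots of 1 section. None of the first set was in any gene list, and 3 of the second set were (Neurog1, Eed and Hey2), named because they are the only ones.

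Among the 14559 genes listed in all 4 files, 1261 were higher with ATRA and 3384 lower. ATRA stood at least 2-fold above each of the other 3 sections in 806 of the higher genes (63.9%), and VitaminA at least 2-fold below each in 67 (5.31%). Of the lower genes, VitaminA stood at least 2-fold above all others in 1132 (33.5%) and ATRA at least 2-fold below all others in 398 (11.8%). Each section had such genes: over all genes, 806 stood alone high in ATRA, 724 in BMS753, 691 in BMS961+BMS641 and 1132 in VitaminA. A gene alone high in the VitaminA section is by definition lower in each of the other 3.

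**Figure D5:**
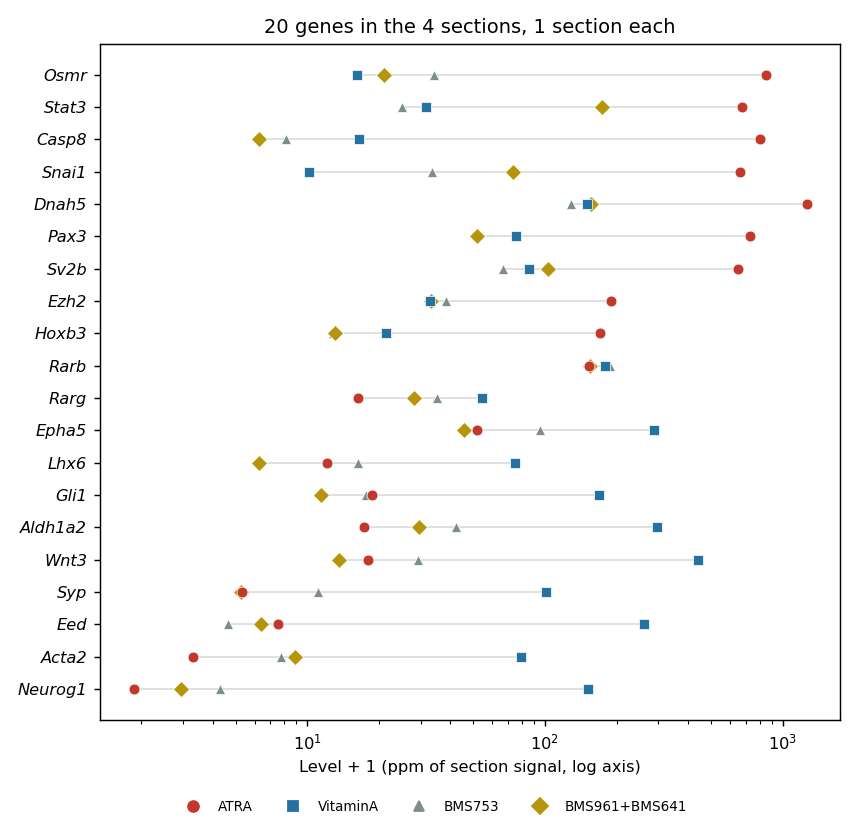
Level plus 1, in ppm of section signal on a log axis, of 20 named genes in the ATRA (circles), VitaminA (squares), BMS753 (triangles) and BMS961+BMS641 (diamonds) sections, each a single section. ATRA is alone at the high end for Osmr, Casp8, Dnah5, Pax3 and Sv2b, and VitaminA for Wnt3, Syp, Eed, Acta2 and Neurog1, while the 4 sections lie close for Rarb.

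No chromosome stood apart. Over 20 chromosomes the median log2 ratio lay between -0.43 and -0.21, the percent of genes higher between 6.88 and 10.8, and the percent lower between 19.5 and 26.2. In 5 equal bins of genomic span, the shortest genes had a median of 0.10 as deposited and -0.67 with the lowest class at 0, and the longest -0.42 and -0.44, so the trend with span depended on the setting. Levels in the 4 quadrants of the ATRA section did not overlap those of the VitaminA section for any of the 227 named genes past 2-fold. Of all 239 named genes this held for 231. It carries little weight, since most were named for passing 2-fold in the same levels, as 8.6% and 22.9% of all genes did. The share of all genes without such overlap is not given here. Quadrants describe spread inside a section and not between organoids.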

How the data were processed

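The 4 spatial sections were deposited by the authors as 1 table each, with a signal per gene and array spot. Per the file names and the values, which every spot of a section shares after sorting up to a factor, the deposited signal was quantile normalised within a section. Per the submitters' processing notes, reads were placed on mm9. The sources used here give neither an aligner nor the way reads were counted and spots chosen. The precision that depth gives is unknown.

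Levels, log2 ratios with a pseudocount of 1 ppm, counts past 2-fold and list medians were computed with Python 3.11.15, numpy 2.4.6, pandas 2.3.3 and scipy 1.17.1, and plotted with matplotlib 3.10.9. No test was run, since each treatment has 1 section. Gene symbols were matched to RefSeq, 20851 of 20881 in the ATRA file and 21610 of 21639 in the VitaminA file. The steps were run on simulated spots with 200 changed genes, in which ties were ranked by file order. Since that order was assumed, the simulation cannot show whether the deposited signal was made that way. Alternatives changed the scaling, pseudocount, filters, summary over spots, spots and genes used, and the treatment of the lowest class. Tie class indices, the ATRA section without array column 50 and levels without genes seen nearly everywhere were chosen after seeing the data.

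The members and the 53 gene lists were chosen with earlier results of these data known. Genes were named by a rule: at least 20 ppm in the higher section and seen in at least 10% of its spots. Of these, the 20 highest and 20 lowest ratios over all genes and up to 5 each way per list could be named. Predicted genes, ribosomal proteins, mitochondrial genes and olfactory or vomeronasal receptors were left out of the first of these. A few genes were named at any level, and Slc45a3 and Ak4 were chosen for their promoters after their values were seen. Results for some genes are not reported here.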

Additional observations from a re-analysis of the deposited data

How the results depend on the processing

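No paired analysis was possible because each treatment has 1 section. Under 22 alternative settings, 4701 values of single named genes and 1100 list medians stayed within the limits set, while 424 and 8 moved and 1 reversed. Of 234 named genes, 161 moved with the percent of spots, 106 without the top 5% of spots of each gene and 87 with a pseudocount of 10 ppm. The reversed value was the log2 ratio of Nrg3, -0.0116 with the percent of spots in place of the level. The percent of spots also gave 770 higher genes and put 25 of the 53 lists below the median of all genes, against 39 as reported and 27 with the lowest class at 0. Genes lower with ATRA numbered 1385 with a pseudocount of 10 ppm, 1804 among genes of at least 20 ppm, 2161 after centring and 5360 without the top 5% of spots of each gene. Genes seen nearly everywhere numbered 125 in ATRA and 188 in VitaminA at limits of 60% and 20% of spots, and 4 and 7 at 90% and 5%. Leaving out each quadrant in turn gave 1261 to 1337 higher and 3403 to 3476 lower genes, and leaving out array column 50 gave 1308 and 3394. The cause of these shifts was not tested. Depth is unknown, and values near the lowest class have no order.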
